A study of Mus musculus with 8 samples.

Results

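The miR-200 family was followed in 4 mouse kidneys with an obstructed ureter and 4 control kidneys. Its members were taken by name from the array: mmu-miR-200b, mmu-miR-200a and mmu-miR-429, which lie in 1 genomic cluster, mmu-miR-200c and mmu-miR-141, which lie in another, and mmu-miR-200b*, mmu-miR-200a*, mmu-miR-200c* and mmu-miR-141*. The prefix mmu-, for mouse, is left out from here on. The asterisk in the array's names denotes the passenger strand of a hairpin, usually the rarer of the pair, and the other is called the guide strand. All 9 members were found among the 611 mouse microRNAs (miRNAs) measured, and 7 of the 9 were bright enough to be tested, among 222 miRNAs tested in all. The UUO group, for unilateral ureteral obstruction, held obstructed kidneys of ICR mice, which are outbred, taken 7 days after surgical ligation of a single ureter. The control group held the opposite kidneys, without obstruction, so every kidney came from an animal with a ligated ureter and no sham-operated or untouched animal was compared. Small RNA was measured on Agilent arrays in 1 colour, 1 array for each kidney, from 100 ng of total RNA.

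The miR-200 family is a hallmark of epithelial cells. Its members repress Zeb1 and Zeb2, transcription factors that switch off E-cadherin and other epithelial genes, and these factors in turn repress the miR-200 clusters. In the kidney the family is expressed in tubule epithelium, and obstruction is a standard model of tubule injury and fibrosis. A miRNA finds its messenger RNA targets mainly through its seed, bases 2 to 8 counted from the 5′ end.

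The sequences are shown because the family can be divided by genomic cluster and by seed, and these divisions cut across each other. All 9 names matched a RefSeq mature sequence (build GRCm38.p6), each on the minus strand. Capitals mark the seed. The 5 guide strands, all from the 3′ arm of their hairpins, were
miR-200b: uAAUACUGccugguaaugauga
miR-429: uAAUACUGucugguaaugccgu
miR-200c: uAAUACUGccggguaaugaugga
miR-200a: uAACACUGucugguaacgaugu
miR-141: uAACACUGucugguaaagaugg
The asterisk strands, all from the 5′ arm, were
miR-200b*: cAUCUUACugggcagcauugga
miR-200a*: cAUCUUACcggacagugcugga
miR-200c*: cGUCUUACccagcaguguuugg
miR-141*: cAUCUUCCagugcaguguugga

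The guide strands thus carried 2 seeds. The seed AAUACUG was shared by miR-200b, miR-429 and miR-200c, and AACACUG by miR-200a and miR-141. Both differ at a single base, U4C from miR-200b to miR-200a with positions counted from the 5′ end. No other mature mouse miRNA of the RefSeq table, of 1679 names, had either guide seed. Over the whole strand, the closest guide strands to miR-200b and miR-200a lay in the other cluster. miR-429 was instead closest to miR-200b and miR-200a of its own cluster, with 18 of 22 positions identical to each. miR-200b and miR-200c were identical at 20 of 22 positions and differed by U11G and A22G, with 1 further base at the 3′ end of miR-200c. miR-200a and miR-141 were also identical at 20 of 22 positions and differed by C17A and U22G. How far the probes of 1 member also captured such a near-identical relative was not tested.

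The miR-200b, miR-200a and miR-429 hairpins span 1846 bases at chr4:156053905-156055750 (GRCm38.p6, minus strand). This span overlaps Gm13648, a gene not annotated as protein-coding, and lies 3088 bases from the nearest protein-coding gene, Ttll10. The miR-200c and miR-141 hairpins span 477 bases at chr6:124717914-124718390 (minus strand), in no other annotated gene, 969 bases from Phb2 and 2317 bases from Ptpn6.

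Signals are given per array as multiples of that array's 75th percentile over the 371 mouse probes well above background on all 8 arrays, summed over the probes of a miRNA. A change is therefore measured against the array's own bright miRNAs. The signal of that percentile before scaling was 514 to 1595 on UUO arrays and 417 to 582 on control arrays. Between 243 and 310 miRNAs were above background on UUO arrays and between 228 and 240 on control arrays. The array of UUO kidney 2 stood apart from its group, with a mean correlation over the tested miRNAs of 0.887 with the other UUO arrays and 0.964 with the control arrays. Results are therefore given with and without it. The kidney-expressed miR-192, miR-194, miR-10a, miR-10b, miR-30a and miR-204 were all above background on all 8 arrays. So were 205 of the 611 mouse miRNAs, so this says little about the identity of the tissue. In whole-kidney RNA, fewer epithelial cells and less of a miRNA in each cell cannot be told apart.

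Relative to each array's bright miRNAs the chromosome 4 cluster was lower in UUO kidneys, a direction that turned in unscaled signal. miR-200b signal was 6.09, 8.24, 6.03 and 4.71 in UUO kidneys 1 to 4, against 9.05, 9.37, 9.68 and 8.96 in control kidneys 1 to 4. miR-200a signal was 3.33, 4.31, 3.34 and 2.71 in the UUO kidneys, against 5.31, 5.83, 5.61 and 5.58 in the control kidneys. miR-429 signal was 3.79, 3.82, 3.67 and 2.99 in the UUO kidneys, against 5.61, 4.84, 5.48 and 5.69 in the control kidneys. For each of these 3 guide strands every UUO array lay below every control array. UUO kidney 4 was the lowest for all 3, and UUO kidney 2 was the highest.

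The SD among UUO kidneys on the log2 scale was 0.33 for miR-200b, 0.27 for miR-200a and 0.17 for miR-429. The control kidneys were closer to each other, with an SD of 0.051 for miR-200b, 0.055 for miR-200a and 0.11 for miR-429.

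**Figure D1:**
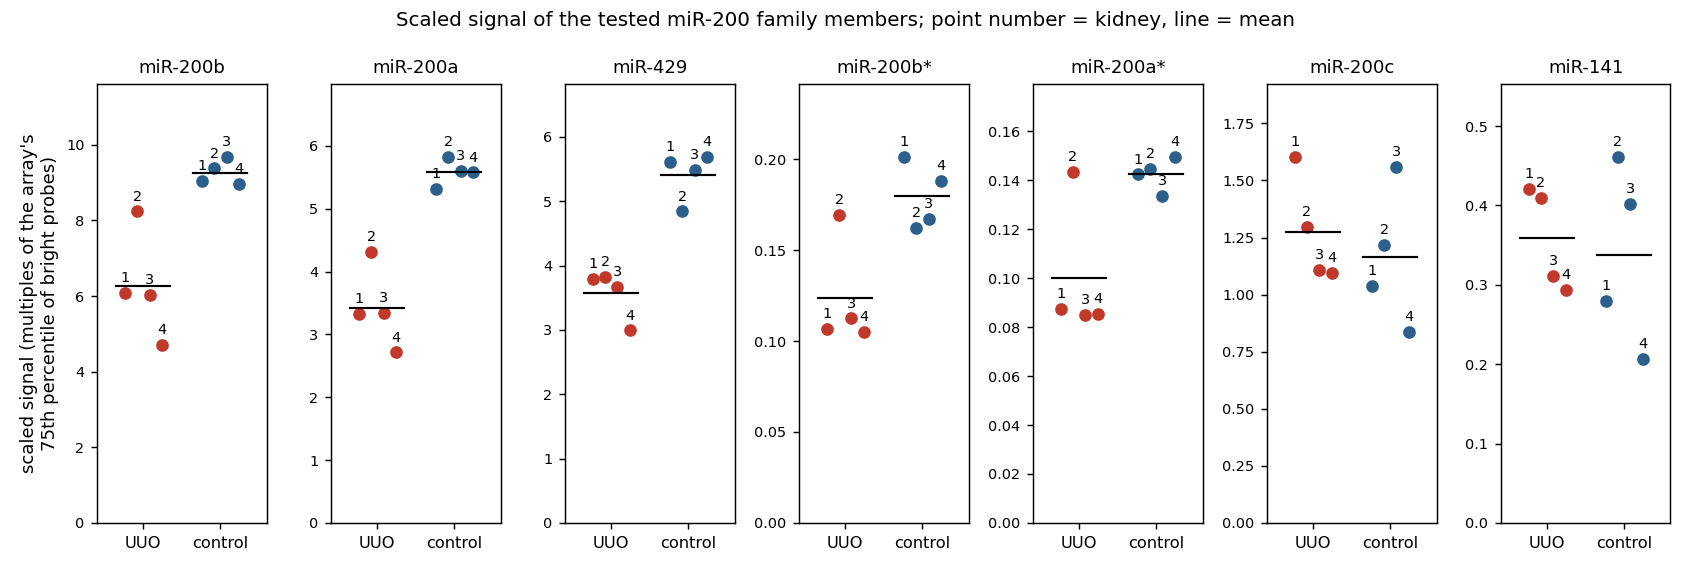
Scaled signal (y axis, multiples of the 75th percentile of bright probes on the same array, linear and starting at 0) of the 7 tested members in UUO and control kidneys. Each point is 1 array, numbered by kidney, and each line is the group mean; the 3 guide strands of the chromosome 4 cluster do not overlap between groups, whereas miR-200c and miR-141 do.

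miR-200a fell in UUO kidneys by 0.72 in log2 units (SE 0.16, n = 4 in each group), a level 1.65-fold lower, with an adjusted p of 0.0266 (limma, Benjamini-Hochberg over the 222 miRNAs). miR-429 fell by 0.60 (SE 0.14), or 1.52-fold, with the same limma adjusted p of 0.0266. miR-200b, at -0.59 (SE 0.18, 95% confidence interval -1.0 to -0.18), had an adjusted p of 0.0649 by limma and missed the threshold of 0.05, but passed it when the log2 signals of its probes were averaged in place of summed (limma adjusted p = 0.0441). Thus 2 of 7 tested members passed the test, both lower, where 14.9% of the 222 miRNAs passed it in either direction and 13.5% passed it as lower in UUO kidneys. At an unadjusted limma p under 0.05 the count was 5 of 7 members, against 36.5% of the 222 miRNAs. Over all 222 miRNAs 21.2% had every UUO array below every control array, as these 3 guide strands did. The calls need the given scaling. No member was called with the 75th percentile over all mouse probes (0% of the 222 miRNAs called), the median (5.86%), quantile normalization (1.35%), normexp background correction (0%) or no scaling (1.35%), and without scaling the changes of all 3 guide strands were above 0. Both calls were also lost when UUO kidney 1, 3 or 4 or control kidney 1, 3 or 4 was left out, and without control kidney 2 only that of miR-429 was kept (limma adjusted p = 0.0396).

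The asterisk strands of the same cluster were dim and followed a similar pattern, except in UUO kidney 2. miR-200b* signal was 0.107, 0.169, 0.112 and 0.105 in UUO kidneys 1 to 4, against 0.201, 0.162, 0.167 and 0.188 in the control kidneys. miR-200a* signal was 0.0874, 0.143, 0.0849 and 0.0854 in the UUO kidneys, against 0.142, 0.145, 0.134 and 0.150 in the control kidneys. UUO kidneys 1, 3 and 4 lay below every control kidney for both strands, and UUO kidney 2 lay within the control range.

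With 8 arrays neither passed the test. The log2 change was -0.56 ± 0.19 for miR-200b* (SE, n = 4 each, limma adjusted p = 0.0785) and -0.55 ± 0.19 for miR-200a* (limma adjusted p = 0.0894), close to the -0.59 and -0.72 of their guide strands. Within arrays, the guide minus asterisk difference of miR-200b was lower in UUO kidneys by 0.027 on the log2 scale, against a control SD of 0.19, and that of miR-200a by 0.18, against a control SD of 0.084. In both cases the groups overlapped. These differences depended on the processing: they were 0.22 for miR-200b and 0.10 for miR-200a with quantile normalization, and 0.61 and 0.44 with normexp, all with overlap. With the mean of probe log2 signals they were -0.25 with overlap for miR-200b and -0.27 without overlap for miR-200a.

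Neither guide strand of the chromosome 6 cluster passed the test. miR-200c signal was 1.60, 1.30, 1.11 and 1.10 in UUO kidneys 1 to 4, against 1.04, 1.22, 1.56 and 0.836 in control kidneys 1 to 4. miR-141 signal was 0.421, 0.410, 0.311 and 0.293 in the UUO kidneys, against 0.280, 0.461, 0.402 and 0.206 in the control kidneys. The groups overlapped for both. The log2 change of miR-200c was 0.15 ± 0.22 (SE, n = 4 each, limma adjusted p = 0.642), with a 95% confidence interval of -0.36 to 0.67. That of miR-141 was 0.14 ± 0.28 (limma adjusted p = 0.742), with an interval of -0.50 to 0.78. These intervals allow a fall as well as a rise, so a lack of change was not shown.

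Control kidneys varied much more for this cluster than for the other. The SD among control kidneys on the log2 scale was 0.38 for miR-200c and 0.52 for miR-141. Both miRNAs were lowest in control kidney 4, next lowest in control kidney 1 and higher in control kidneys 2 and 3. Among UUO kidneys both were highest in kidney 1 and lowest in kidney 4.

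Neither asterisk strand of this cluster was tested. miR-200c* was above background on no array, with all of its 4 probes below background, and its scaled signal did not exceed 0.00641. miR-141* was above background only on the arrays of UUO kidneys 3 and 4, by 1 and 2 of its 4 probes, and its scaled signal was 0.0136 to 0.0251 on UUO arrays and 0.00456 to 0.0114 on control arrays, mostly under the floor of 0.0213. No fold is given for either.

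**Figure D2:**
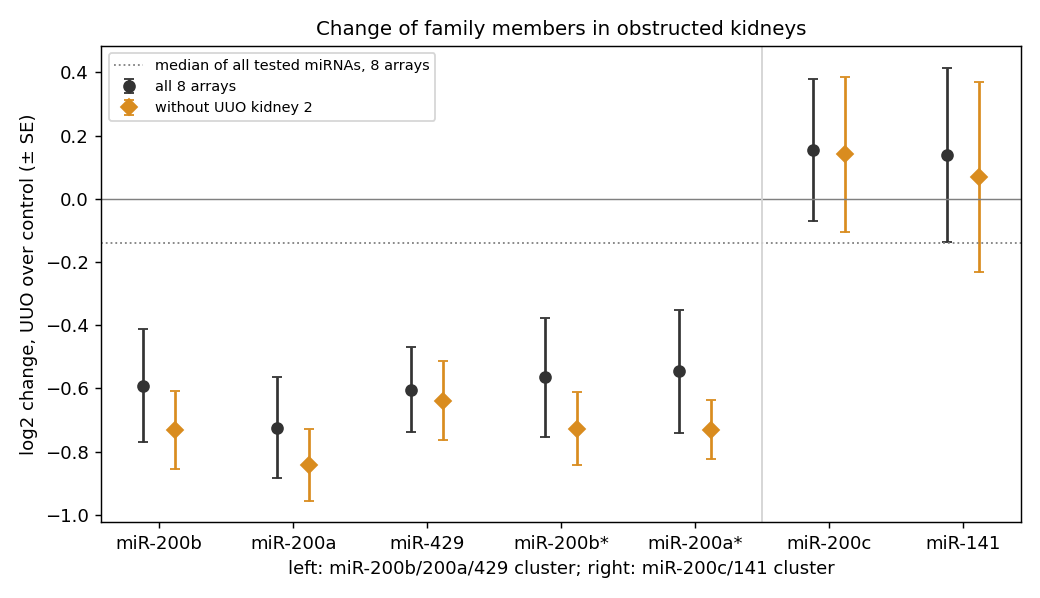
Log2 change of the 7 tested members, UUO over control (y axis), with bars of ± SE from limma for all 8 arrays and for the 7 arrays without UUO kidney 2. The 5 members of the chromosome 4 cluster lie between -0.84 and -0.55 and the 2 members of the chromosome 6 cluster between 0.069 and 0.15; without scaling all 7 lie above 0. The dotted line is the median of all tested miRNAs, -0.14.

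The clusters were then compared within each array, since a ratio of 2 signals from the same array does not depend on any scaling by a constant. The measure was the mean log2 signal of miR-200b, miR-200a and miR-429 minus that of miR-200c and miR-141, set to 0 at the control mean. It was -1.06, -0.62, -0.60 and -0.86 in UUO kidneys 1 to 4, against 0.15, -0.34, -0.36 and 0.55 in control kidneys 1 to 4. Every UUO kidney lay below every control kidney, including UUO kidney 2. The control kidneys alone spanned 0.91 on this measure. How often differences between other miRNAs separate the groups was not tested. Among single miRNAs, 21.2% of the 222 had every UUO array below every control array. The mean difference was -0.79 (SD 0.22 in UUO and 0.43 in control kidneys, n = 4 each), so the clusters changed unequally in these arrays. No p is given, since the members were chosen with results known.

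The same contrast appeared between members with a common seed. Relative to the control mean, miR-200b minus miR-200c was -1.11, -0.36, -0.59 and -0.93 in UUO kidneys 1 to 4, against 0.093, -0.085, -0.40 and 0.39 in the control kidneys, which overlapped by 1 array in each group. miR-429 minus miR-200c, with the same seed, averaged -0.76 in UUO kidneys and did not overlap the control kidneys, with UUO kidneys at -1.01 to -0.53 and control kidneys at -0.44 to 0.52. miR-200a minus miR-141, with the other seed, averaged -0.86 and did not overlap either, at -1.13 to -0.69 in UUO kidneys and -0.46 to 0.64 in control kidneys. With quantile normalization the cluster difference was -0.60 and with normexp -0.39, and the groups overlapped under both. The pairs with a common seed also overlapped under both. miR-429 minus miR-200c was then -0.55 under each. miR-200a minus miR-141 was -0.69 with quantile normalization and -0.30 with normexp.

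Sorting the same 5 guide strands by seed gave no such contrast. The mean log2 signal of miR-200b, miR-200c and miR-429 minus that of miR-200a and miR-141 was -0.026, -0.15, -0.0068 and -0.039 in UUO kidneys 1 to 4, against 0.10, -0.30, 0.019 and 0.18 in the control kidneys. The mean difference was -0.055 (SD 0.062 in UUO and 0.21 in control kidneys, n = 4 each), and the UUO values lay inside the control range. With normexp it was 0.16, with overlap. Both seed groups hold members of both clusters, so the seed difference follows from the members' own changes and is not a separate test.

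Within the chromosome 4 cluster, the members differed little. miR-200b minus miR-200a was 0.063 to 0.20 in UUO kidneys and -0.048 to 0.056 in control kidneys, a mean difference of 0.13 on the log2 scale without overlap, although the groups overlapped with quantile normalization. miR-429 minus miR-200a differed by 0.12 and miR-429 minus miR-200b by -0.012, and both overlapped. Within the chromosome 6 cluster, miR-200c minus miR-141 differed by 0.015 and overlapped, and control kidney 2, at -0.42, lay apart.

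**Figure D3:**
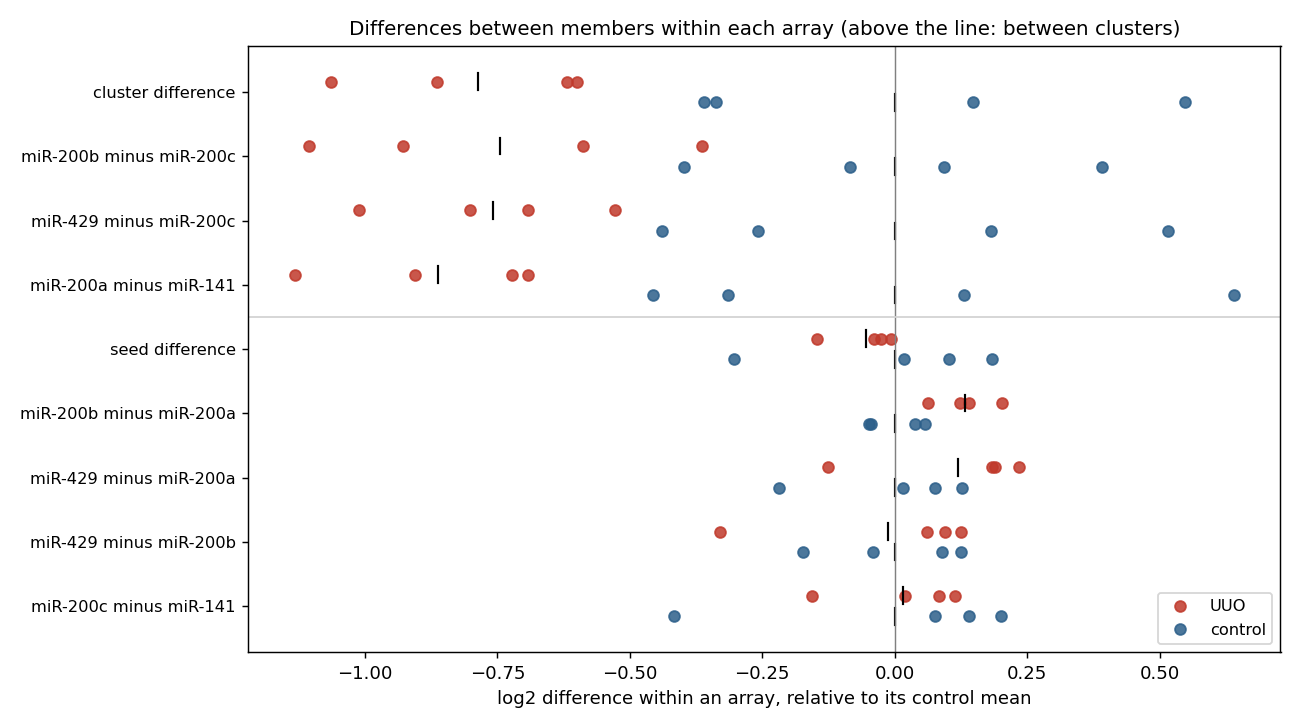
Log2 difference between members within an array (x axis), set to 0 at the control mean, for UUO and control kidneys; each point is 1 array and each vertical tick a group mean. Differences between clusters (above the grey line) average -0.86 to -0.75 in UUO kidneys, whereas the seed difference and the differences within clusters average -0.055 to 0.13.

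Without UUO kidney 2, all 5 tested members of the chromosome 4 cluster fell, although they lay at 0.33 to 0.53 without scaling, and neither member of the chromosome 6 cluster passed the test. miR-200a fell by 0.84 on the log2 scale (SE 0.11, n = 3 and 4), miR-200b by 0.73 (SE 0.12), miR-429 by 0.64 (SE 0.13), and miR-200a* and miR-200b* by 0.73 each (SE 0.092 and 0.11). Their limma adjusted p-values lay between 0.00105 and 0.00590. miR-200c was at 0.14 ± 0.25 and miR-141 at 0.069 ± 0.30 (limma adjusted p = 0.655 and 0.848). In that comparison 50.9% of the 222 miRNAs passed the test, 30.2% as lower. All 5 also had every UUO array below every control array, as did 32.4% of the 222 miRNAs. Dropping the array nearest to the other group raises such counts by its own nature. miR-429 depended least on that array among the 3 guide strands of this cluster, with UUO kidney 2 at -0.50 relative to the control mean on the log2 scale and UUO kidneys 1 and 3 at -0.51 and -0.56.

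The 2 rows of the slide each held 2 UUO and 2 control arrays. The cluster difference was -0.75 in row 1, which held kidneys 1 and 2 of both groups, and -0.83 in row 2, which held kidneys 3 and 4. miR-200a changed by -0.55 in row 1 and -0.89 in row 2, miR-429 by -0.45 and -0.75, and miR-200b by -0.38 and -0.80. miR-200c was at 0.36 in row 1 and -0.051 in row 2. No member passed the test in row 1, where 0% of the 222 miRNAs did (limma, 0.45% at an unadjusted p under 0.05), and 4 members (miR-200a, miR-429, miR-200b* and miR-200a*) fell in row 2, where 31.1% passed and 22.1% did so as lower. With slide row as a block miR-200a and miR-429 kept their calls (limma adjusted p = 0.0343 and 0.0393). With the kidney number as a block both calls were lost (limma adjusted p = 0.0729 and 0.0853), and whether same-numbered kidneys came from the same mouse is not stated.

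Separate probes of a member gave similar changes for the bright members. The 2 probes of miR-200a changed by -0.72 and -0.74 on the log2 scale, those of miR-200b by -0.59 each and those of miR-429 by -0.61 and -0.59. The 2 probes of miR-200c were at 0.19 and 0.14 and those of miR-141 at 0.19 and 0.13. The asterisk strands were less even, with 3 probes of miR-200a* at -0.62 to -0.27 and 4 probes of miR-200b* at -0.63 to 0, the last a probe below background on every array.

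The arrays of UUO kidneys 1, 3 and 4 were brighter before scaling than every control array, most of all those of kidneys 3 and 4 in slide row 2. The direction of a member's change therefore depends on the scaling. Division by a constant per array shifts all miRNAs alike, so it hardly alters a member's place among them. Without scaling the median log2 change of all 222 miRNAs was 0.74, against -0.14 with the scaling used here, and the 7 members then lay between 0.16 and 1.04. With the scaling used here and relative to its median, miR-200a was at -0.58, miR-429 at -0.46, miR-200b at -0.45, miR-200b* at -0.42, miR-200a* at -0.40, miR-141 at 0.28 and miR-200c at 0.29. Those of the 3 chromosome 4 guide strands were the same without scaling, as such a division fixes in advance. With quantile normalization, which can move them, they were -0.40 (miR-200a), -0.30 (miR-429) and -0.28 (miR-200b). With normexp the median of all tested miRNAs was -0.62, and relative to it miR-200b turned to 0.14 and miR-429 to 0.11, while miR-200a was at -0.0026 and miR-200c at 0.66. miR-200c and miR-141 stayed above the 3 guide strands of the chromosome 4 cluster under each of the 7 settings drawn in the plot of scaling alternatives. A division by a constant could not change this order. Of all tested miRNAs, 18.0% had a lower change than miR-200a, 22.5% than miR-429 and 23.0% than miR-200b, against 65.8% for miR-141 and 68.0% for miR-200c.

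**Figure D4:**
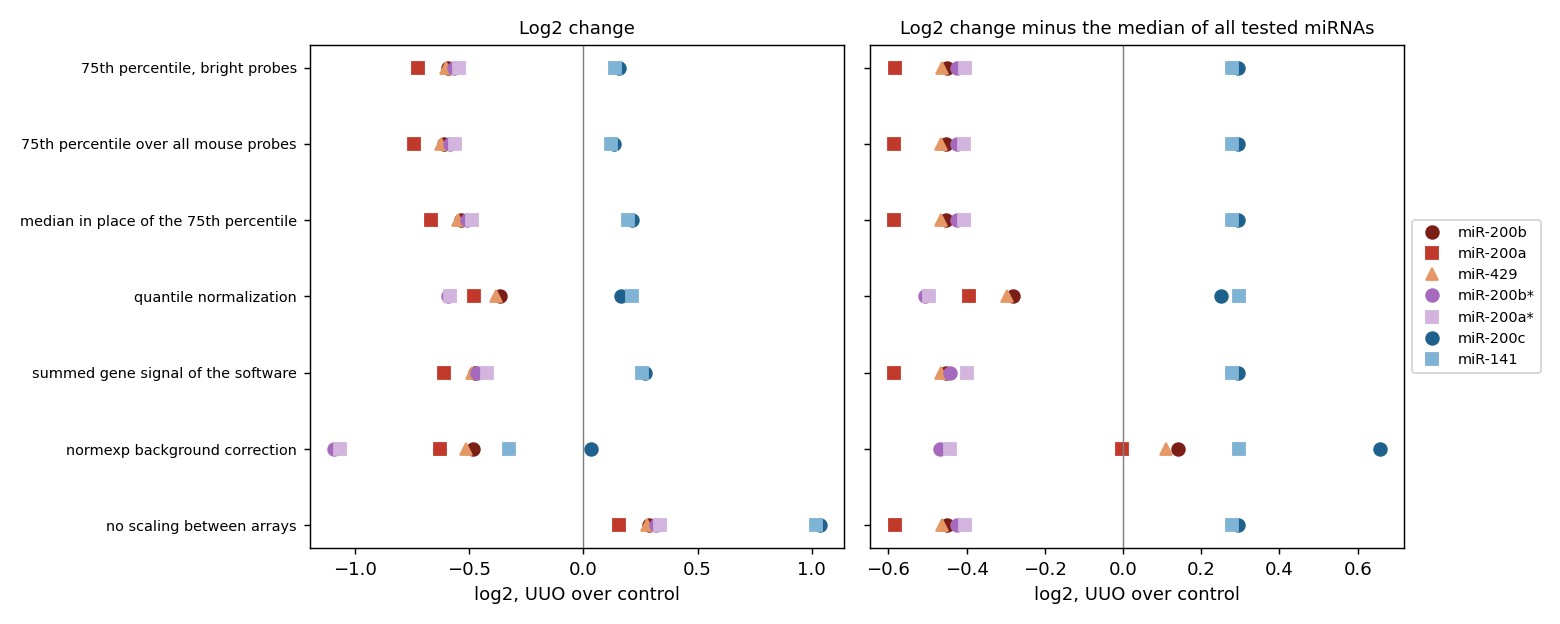
Log2 change of the 7 tested members, UUO over control (x axes), under 7 ways of scaling or background correction (rows), as such on the left and after subtraction of the median of all 222 tested miRNAs on the right. Without scaling all members move above 0 on the left, and on the right the chromosome 4 guide strands stay at -0.58 to -0.28 except with normexp, where they lie at -0.0026 to 0.14. Scaling by a constant per array cannot move the values on the right, apart from small effects of the floor.

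The tested miRNAs outside the family whose profiles over the 8 arrays were nearest to the mean of the chromosome 4 guide strands were let-7g, miR-26b, miR-22 and miR-484. Nearness was the root mean square difference of log2 values, each centred on its own mean, and was 0.062, 0.073, 0.079 and 0.13 for these 4, with a median of 0.51 over the 215 candidates. The 3 guide strands themselves lay at 0.066 (miR-200b), 0.062 (miR-200a) and 0.098 (miR-429) from their mean. That mean contains them, which shortens these distances. let-7g changed by -0.67, miR-26b by -0.72, miR-22 by -0.61 and miR-484 by -0.65 on the log2 scale. Nearest to the mean of miR-200c and miR-141 were miR-9, miR-10a, miR-301a and miR-24-1*, at 0.15, 0.21, 0.22 and 0.25, with log2 changes of -0.10, 0.0043, 0.20 and -0.12. A choice by profile over the same 8 arrays draws in miRNAs with similar changes, so these changes are not separate results.

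Among 15 other epithelial miRNAs on the array, 12 were tested, 5 of which fell and none rose, where 13.5% of the 222 miRNAs fell and 1.35% rose. Their median log2 change was -0.81, against -0.14 over all 222 miRNAs. Without scaling these medians were 0.071 and 0.74, and without UUO kidney 2, with the scaling, 8 fell, where 30.2% of the 222 miRNAs did, and the median was -1.01. The 5 called with all 8 arrays were miR-194, at -1.31 ± 0.18, and miR-192, at -1.27 ± 0.26, both abundant in kidney tubules, miR-30e at -1.36 ± 0.35, miR-30a at -0.84 ± 0.20, and miR-203, at -0.93 ± 0.16, known from stratified epithelia (SE, n = 4 each). The list also held values above 0: miR-183 was at 0.64 ± 0.31, miR-96, of the same cluster, at 0.51 ± 0.34 and miR-205 at 0.31 ± 0.39 (limma adjusted p from 0.174 to 0.614), chosen after their values were seen. The changes of miR-200a and miR-429 were smaller in size than those of all 5 called miRNAs of this list.

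The summed signals of mesenchymal and TGF-beta-associated miRNAs and of leukocyte miRNAs were higher in UUO kidneys 1, 3 and 4 than in any control kidney. The mesenchymal and TGF-beta-associated sum was mostly miR-21, with a mean log2 signal of 6.03 in UUO and 5.22 in control kidneys. The next brightest tested member, miR-199a-3p, was at 2.29 and 1.24. Of 7 tested mesenchymal and TGF-beta-associated miRNAs 0 were called with 8 arrays, where 1.35% of the 222 miRNAs were called higher, and the median log2 change was 1.16. Without UUO kidney 2, 6 of the 7 rose, the exception being miR-143, where 20.7% of the 222 miRNAs rose. The first 3 tested were miR-21 at 0.81 ± 0.46, miR-199a-5p at 1.16 ± 0.57 and miR-199a-3p at 1.05 ± 0.48. The summed signal of this list was 28.9 in UUO kidney 2 and 91.6 to 120.3 in the other UUO kidneys, against 36.2 to 64.3 in control kidneys, and its median log2 change was above 0 without scaling (2.04) and with normexp (0.69) too. Of 5 tested leukocyte markers 0 were called with 8 arrays, with a median of 1.35, and all 5 rose without UUO kidney 2, again where 1.35% and 20.7% of the 222 miRNAs were called higher. miR-155 stood in both lists, and the leukocyte markers miR-142-5p and miR-150 were above background on only 3 and 4 arrays. The first 3 tested were miR-223 at 1.45 ± 0.50, miR-142-3p at 1.31 ± 0.46 and miR-342-3p at 1.46 ± 0.82. Their summed signal was 1.88 in UUO kidney 2 and 6.84 to 7.69 in the other UUO kidneys, against 1.98 to 2.71 in control kidneys. The part of these cells in the lower signal of the chromosome 4 cluster was not tested. The sums of both lists, the first mostly miR-21, lay lower in UUO kidney 2 than in every control kidney. In UUO kidney 2 the log2 signal relative to the control mean was -0.17 for miR-200b, -0.37 for miR-200a and -0.50 for miR-429. It was -0.078 for miR-200b* and 0.0091 for miR-200a*.

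Of the tested markers, 2 endothelial, 2 erythroid, 1 smooth muscle and 1 striated muscle, 1 was called, where 14.9% of the 222 miRNAs were. This was miR-126-5p, an endothelial strand, at -0.81 ± 0.18, beside -0.30 ± 0.15 for miR-126-3p, although their median was 0.33 in unscaled signal. The erythroid miR-451 was at -0.20 ± 0.77 and miR-486 at -0.11 ± 0.75, the smooth muscle miR-143 at 0.10 ± 0.23, and the striated muscle miR-1 at -0.81 ± 0.29 (limma adjusted p = 0.0906), none of the 4 called.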

How the data were processed

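The 8 arrays lay on 1 slide with 1 scan time. The deposited spot intensity values were made with Agilent's Feature Extraction software (10.7.3.1 per the file headers; the submitters' processing notes name 10.1.1), which had subtracted background and removed spatial trends. The deposited marks of 0 or 1 per spot gave outliers, saturation (none) and signal well above background. The series matrix intensities equalled the deposited spot signals.

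Outlier and control spots were left out, spots of a probe averaged, arrays scaled as described, probes of a miRNA summed, a common floor of 0.0213 set and log2 taken. This floor was taken on each array as the 1st percentile of its scaled probes above background, and then as the median of the 8 values. A probe was above background when over 50% of its spots carried the mark, and a miRNA when 1 of its probes was. miRNAs above background on all 4 arrays of a group were tested with limma 3.58.1 (R 4.3.3), in two-sided tests, and p-values were adjusted by Benjamini-Hochberg over 222 miRNAs with a threshold of 0.05. Values near the floor understate changes. The fit was tested on simulated data. The scanner files hold no mean spot signal, so normexp (offset 50) used the median spot and background signals. Figures used Python 3.11.15 and matplotlib 3.10.9.

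The family, the marker lists and the tests were chosen with earlier results of these data known. Named miRNAs were the members, the 4 nearest profiles to each cluster, and called or first-listed members of each list. Alternatives covered scaling, background, summary, floor, filter, blocks, slide rows, an exact permutation test and leaving out each array. The labels number the kidneys but do not name the mice. With a single ureter ligated in each mouse, kidneys of a group came from separate mice if the numbers stand for separate kidneys. The p-values measure only the spread between these samples. Whether same-numbered kidneys share a mouse is not stated; deviations of same-numbered kidneys correlated above 0.1 in 2 of 4 pairs, so the numbers were not taken as pairs. The number of arrays limits precision.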

Additional observations from a re-analysis of the deposited data

Results flagged for a closer look

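In 5 of 36 groups of 4 values examined, 1 array lay far from the other 3 by Dixon's 95% criterion. Chance gives about 1 in 20 groups, and these groups share arrays and members. UUO kidney 2 lay apart for miR-200a* (ratio of gap to range 0.945), at 0.0091 relative to the control mean on the log2 scale while the other UUO kidneys lay at -0.75 to -0.71, and for miR-200b* (0.859), at -0.078 while the others lay at -0.77 to -0.67. It also lay apart for miR-429 minus miR-200a (0.859), at -0.13 while the others lay at 0.18 to 0.23, and for miR-429 minus miR-200b (0.858), at -0.33 while the others lay at 0.061 to 0.13. UUO kidney 4 lay apart for miR-429 (0.83), at -0.85 while the others lay at -0.56 to -0.50.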

How the results depend on the processing

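The calls depended on scaling and on single arrays. The cluster difference kept its direction under every alternative run, but scaling by a constant, the floors and the filters could not change it. Quantile normalization and normexp could, and gave -0.60 and -0.39, with overlap of the groups under both. With 8 arrays 33 miRNAs were called, 2 of them family members. Called miRNAs and family members numbered 3 and 0 without scaling and with the unscaled series matrix (64 miRNAs at an unadjusted limma p under 0.05), 0 and 0 with the 75th percentile over all mouse probes (56) and with normexp (54), 13 and 0 with the median, 3 and 0 with quantile normalization and with the summed gene signal, 17 and 1 with no filter on dim miRNAs, and 37 and 3 with the mean of probe log2 signals, which added miR-200b. They numbered 0 and 0 within slide row 1, 69 and 4 within slide row 2, and 0 and 0 with the exact permutation test (51). The smallest p that the exact permutation test can give with 8 arrays was 0.0286, reached by miR-200a, miR-200b and miR-429. Calls by it needed very many of the 222 miRNAs at that value, so its lack of calls says little. With the replicate number as a block, called miRNAs and family members numbered 0 and 0 (67 at an unadjusted limma p under 0.05). Whether same-numbered kidneys share a mouse is not stated, and 1 of 4 UUO kidneys correlated best with its own number. Leaving out each array in turn gave 0 to 113 miRNAs and 0 to 5 members, with 5 members only without UUO kidney 2, 1 (miR-429) without control kidney 2 and 0 otherwise.

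Alternatives added after seeing the data left out UUO kidney 2 and gave 115 miRNAs without scaling (113 higher and 2 lower; members miR-200c and miR-141, higher), 100 and 5 with quantile normalization, 33 and 1 with normexp (miR-200a), 72 and 0 with the percentile over all mouse probes, and 105 and 5 with the summed gene signal.

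Without scaling or with the series matrix the log2 changes turned to 0.29 for miR-200b, 0.16 for miR-200a, 0.28 for miR-429, 0.32 for miR-200b* and 0.34 for miR-200a*, and without UUO kidney 2 as well to 0.44, 0.33, 0.53, 0.45 and 0.44. The brighter UUO arrays fix this shift. miR-141 turned to -0.33 with normexp, -0.44 with normexp without UUO kidney 2, and ranged from -0.074 (without control kidney 4) to 0.31 when each array was left out. miR-200c turned to -0.051 within slide row 2. With normexp the cluster difference was -0.39 (-0.41 without UUO kidney 2) and the seed difference 0.16 (0.21); the cause was not tested. Of 210 values of the 7 members under alternatives, 144 kept direction and side of the threshold. Most of the 144 came from members that were not called and stayed so. Of the called members, miR-200a kept direction and call in only 10 of 30 alternatives and miR-429 in 11 of 30. miR-200a kept its direction but lost its call in 17 and reversed direction in 3. For miR-429 these counts were 16 and 3.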
